A study of Rattus norvegicus with 192 samples.

Results

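Thyroid hormone receptors and a set of genes that answer to them were followed in 4 tissues of adult male rats. The 7 genes were chosen by symbol: the receptor genes Thra and Thrb, their partner Rxrb, the corepressor gene Ncor1, and the response genes Thrsp, Klf9 and Hr. All 7 had a row among the 17483 genes counted. The study used wild-type rats of the Crl:CD(SD) stock and asked how the perfluorinated surfactant PFOS (perfluorooctane sulfonate), with or without the antibiotic vancomycin, changes transcripts of the thyroid hormone axis. Each rat was gavaged daily for 7 days, from postnatal day 56 to 62. The 4 groups received PFOS at 3 mg/kg, PFOS at 3 mg/kg together with vancomycin at 8 mg/kg (called the combination here), vancomycin at 8 mg/kg, or the corn oil vehicle that served as control. Hypothalamus, pituitary, thyroid and liver were profiled by 3′ bulk RNA barcoding, a method that tags the RNA of every sample before pooling. Each tissue had 12 libraries per group, 192 in all.

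Thyroid hormone receptors are nuclear receptors that sit on DNA, mostly paired with a retinoid X receptor. Without hormone they hold corepressors such as the Ncor1 protein at their target genes, and binding of triiodothyronine exchanges the corepressors for coactivators. The product of Thra is known as the main receptor of brain, heart and skeletal muscle, and that of Thrb as the main receptor of liver and of the pituitary cells through which thyroid hormone lowers its own stimulus.

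Libraries under 100000 counts were left out: 11 from liver, 2 from thyroid and 1 from hypothalamus. The 178 kept libraries numbered 12 PFOS, 11 combination, 12 vancomycin and 12 vehicle for hypothalamus, with 12 of each for pituitary. Thyroid kept 10, 12, 12 and 12 in that order, and liver kept 8, 10, 10 and 9. Their totals ran from 106742 to 3387946 counts, and levels are given as CPM, counts scaled to 1000000 per library. In hypothalamus the mean total was 700533 counts for PFOS, 532574 for the combination, 740349 for vancomycin and 905432 for vehicle, so library depth moved with treatment. Each treatment also filled its own plate rows, and plate row and treatment cannot be told apart. Hypothalamus and pituitary shared a plate, and thyroid and liver shared the other. For comparisons of tissues across the plates, tissue and plate cannot be told apart. The defining transcripts of each tissue were present: hypothalamus markers summed to 4629 CPM in hypothalamus, pituitary markers to 360387 CPM in pituitary, thyroid follicle markers to 55502 CPM in thyroid and hepatocyte markers to 180464 CPM in liver.

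**Figure D1:**
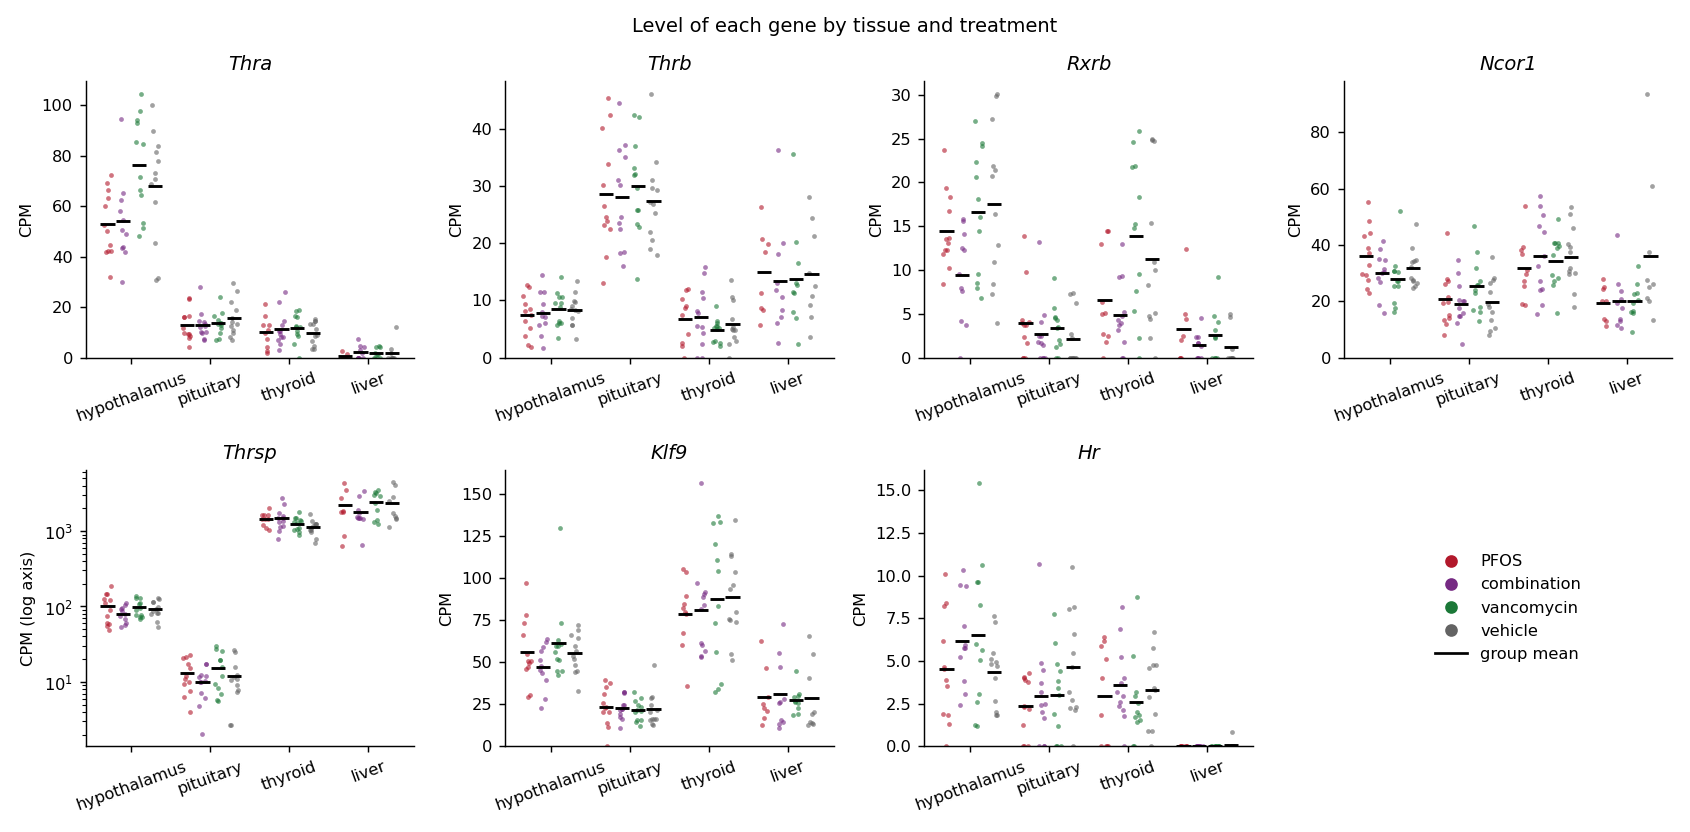
CPM of each gene in every kept library (points) by tissue, with treatments in the order PFOS, combination, vancomycin and vehicle and a bar at each group mean; the axis of Thrsp is logarithmic. Thra stood highest in hypothalamus, Thrb in pituitary, Thrsp in liver and thyroid and Klf9 in thyroid.

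The receptor gene Thra was the member with the clearest preference for brain. In vehicle hypothalamus it ranged over 30.9 to 100 CPM with a median of 71.8 and a mean of 67.9 ± 22.01 CPM (SD, n = 12). It averaged 15.7 ± 7.17 CPM in pituitary (n = 12), 9.84 ± 4.48 CPM in thyroid (n = 12) and 1.93 ± 4.04 CPM in liver (n = 9), where 3 of 9 vehicle libraries held a Thra count. Hypothalamus exceeded pituitary by 1.39 ± 0.23 on the log2 scale (SE; edgeR adjusted p = 1.97e-06), thyroid by 2.46 ± 0.22 (adjusted p = 6.77e-12) and liver by 4.60 ± 0.47 (adjusted p = 8.37e-11). All of the vehicle hypothalamus libraries lay above all of the vehicle pituitary, thyroid and liver libraries. The tissues differed for most genes: 74.5% of the genes tested passed at an adjusted p of 0.05 between hypothalamus and pituitary, 76.8% between hypothalamus and thyroid, and 78.6% between hypothalamus and liver. The order of pituitary and thyroid for Thra has no main test, because Thra did not pass the filter on low counts there, and their ranges overlapped.

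In hypothalamus Thra had a lower mean in both groups given PFOS. It measured 32.1 to 72.4 CPM with a median of 51.2 in PFOS rats and 30.1 to 94.3 CPM with a median of 50.4 in combination rats, against 48.2 to 104 CPM with a median of 78.0 in vancomycin rats and a vehicle median of 71.8. The groups overlapped, with 10 of 11 combination libraries below the vancomycin mean of 76.1 CPM and 10 of 12 PFOS libraries below the vehicle mean. Thra fell by 0.60 ± 0.17 on the log2 scale in combination against vancomycin hypothalamus (edgeR adjusted p = 0.0195), 1 of the 5 members tested, while 7.91% of all genes were called in that comparison. A call stands here for an adjusted p under 0.05 over all genes tested. The PFOS against vehicle difference of -0.39 ± 0.16 did not pass (edgeR adjusted p = 0.14, with 4.44% of genes called and 0 of 5 members, 1 at an unadjusted p under 0.05 and 0 by DESeq2). Nor did the combination against vehicle difference of -0.43 ± 0.17 (edgeR adjusted p = 0.10). Averaged over rats with and without vancomycin, a contrast added after the data were seen, the PFOS effect on Thra was -0.50 ± 0.12 (edgeR adjusted p = 0.00172), and 2 of 5 members were called where 20.5% of all genes were. In bulk tissue, fewer cells that carry a transcript and less of it per cell cannot be told apart.

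The call for Thra in combination against vancomycin was lost with a depth or barcode covariate and without 1 library. With libraries of at least 500000 counts it held (-0.70 ± 0.18, edgeR adjusted p = 0.0182). The PFOS effect averaged over rats with and without vancomycin passed at that minimum (-0.53, edgeR adjusted p = 0.00269). It also passed with barcode G and C content (-0.47, adjusted p = 0.00675) but not with log2 total (-0.37, adjusted p = 0.0846). With log2 library total as a covariate the combination against vancomycin difference was -0.46 (edgeR adjusted p = 0.19), with the G and C content of the well barcode as a covariate -0.55 (adjusted p = 0.0937), and without vancomycin library 23, the highest at 104 CPM, -0.54 (adjusted p = 0.0503). Across the 47 hypothalamus libraries Thra correlated with log2 total at r = 0.34 and rho = 0.42 (permutation test, adjusted p = 0.0466 and 0.00965 over 10 relations), and r was 0.51 without the 2 libraries of most extreme depth. Within groups r was 0.00 for PFOS, -0.33 for combination, 0.63 for vancomycin and 0.67 for vehicle. After removal of treatment means, log2 Thra correlated with log2 total at r = 0.21, given as a description. The 3′ end of Thra overlaps that of Nr1d1 on the opposite strand, by 1061 bases in the RefSeq annotation of GRCr8 on chromosome 10, and the counting strand was not given in the sources used here. Nr1d1, which encodes the clock repressor Rev-erb alpha, averaged 17.3 ± 7.10 CPM in PFOS, 17.6 ± 5.34 in combination, 17.7 ± 8.37 in vancomycin and 12.9 ± 4.33 in vehicle hypothalamus, with no call by edgeR (adjusted p of at least 0.320 in the contrasts against vehicle). For combination against vancomycin, where Thra was called, the log2 fold change of Nr1d1 was 0.05 ± 0.24 (edgeR adjusted p = 0.945). The part of shared reads in the Thra values was not tested. Isoforms of Thra that bind or do not bind hormone were not separated by the counts.

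**Figure D2:**
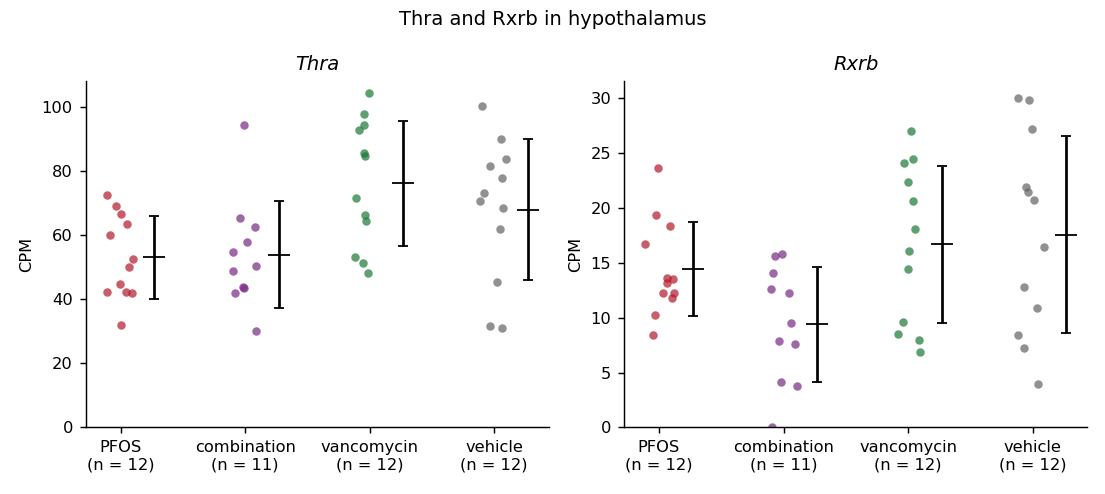
CPM of Thra (left) and Rxrb (right) in each hypothalamus library, with the mean and SD of each treatment beside the points. For Thra the PFOS and combination means (53.1 and 53.9 CPM) lay below those of vancomycin and vehicle (76.1 and 67.9 CPM), and for Rxrb the combination mean (9.39 CPM) was the lowest, with overlap between groups.

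Thrb showed another tissue order. Its vehicle libraries held 17.9 to 46.1 CPM in pituitary (median 27.01, mean 27.4 ± 7.74, n = 12), 3.59 to 28.1 CPM in liver (median 12.45, mean 14.6 ± 8.27, n = 9), 3.23 to 13.4 CPM in hypothalamus (median 8.47, mean 8.37 ± 2.75, n = 12) and 0 to 13.6 CPM in thyroid (median 4.88, mean 5.82 ± 3.86, n = 12). Every vehicle pituitary library lay above every vehicle hypothalamus and thyroid library, and pituitary and liver overlapped. Hypothalamus stood below pituitary (edgeR log2 fold change -2.35 ± 0.20, adjusted p = 3.49e-13), the reverse of the order of Thra in the same pair. Thrb passed the filter for treatment tests in pituitary alone, where it averaged 28.6 ± 10.03 CPM in PFOS, 28.2 ± 8.94 in combination, 30.003 ± 8.36 in vancomycin and 27.4 ± 7.74 in vehicle rats. Its log2 fold changes were 0.02 ± 0.20 for PFOS against vehicle, -0.09 ± 0.19 for combination against vancomycin and -0.03 ± 0.20 for combination against vehicle (edgeR adjusted p of at least 0.968).

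Rxrb, the gene of the retinoid X receptor beta that pairs with thyroid hormone receptors among others, was low and spread widely. In hypothalamus it measured 8.42 to 23.7 CPM in PFOS rats (median 13.3), 0 to 15.8 CPM in combination rats (median 9.53), 6.86 to 27.04 CPM in vancomycin rats (median 17.1) and 3.98 to 30.1 CPM in vehicle rats (median 18.6). All 11 combination libraries lay below the vehicle mean of 17.6 CPM, although the ranges overlapped. Rxrb fell by 0.90 ± 0.27 on the log2 scale in combination against vehicle hypothalamus (edgeR adjusted p = 0.0283), 1 of 5 members tested beside 8.14% of all genes. The difference of combination against vancomycin was -0.81 ± 0.28 (edgeR adjusted p = 0.059) and that of PFOS against vehicle -0.40 ± 0.23 (adjusted p = 0.329), and the PFOS effect averaged over rats with and without vancomycin was -0.61 ± 0.18 (adjusted p = 0.0136).

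Rxrb ran with library depth. Over 47 hypothalamus libraries its CPM correlated with log2 total at r = 0.61 and rho = 0.61 (permutation test, adjusted p = 0.0002 for both over 10 relations), with r = 0.57 without the 2 libraries of most extreme depth, and within-group values of -0.33 for PFOS, 0.64 for combination, 0.67 for vancomycin and 0.82 for vehicle. With log2 total as a covariate the combination against vehicle difference was -0.29 (edgeR adjusted p = 0.731), with barcode G and C content -0.83 (adjusted p = 0.119), and with libraries of at least 500000 counts -0.77 (adjusted p = 0.109). A fit of only those 2 groups left Rxrb below the filter. Leaving out vehicle library 1, 6, 9 or 10 or combination library 37, 39, 42 or 47 in turn gave differences between -0.79 and -0.87 and adjusted p of 0.0506 to 0.0699. In thyroid Rxrb stood below the filter and averaged 6.53 ± 5.45 CPM in PFOS, 4.88 ± 3.898 in combination, 13.9 ± 8.88 in vancomycin and 11.3 ± 9.14 in vehicle rats (n = 10, 12, 12 and 12). Of 70 permutation tests on members below the filter, 0 passed adjustment and 3 had an unadjusted p under 0.05, the smallest being thyroid Rxrb for combination against vancomycin (p = 0.00426, adjusted p = 0.298). Without the filter, edgeR gave thyroid Rxrb a PFOS effect averaged over rats with and without vancomycin of -1.27 ± 0.35 (adjusted p = 0.0321). Thyroid Rxrb also correlated with log2 total (r = 0.44, rho = 0.39, permutation p = 0.00216 and 0.00772, n = 46).

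Rxrb values matched between hypothalamus and thyroid libraries that bear the same number. The 48 number pairs of these tissues carry the same well barcode on different plates, and the labels do not say that a number marks one rat. Over 45 pairs of kept libraries Rxrb correlated at r = 0.62 and rho = 0.57 (permutation test, adjusted p = 0.00072 and 0.00288 over 36 relations of members between tissues), with r = 0.65 without the 2 farthest pairs and within-group values of -0.01 for PFOS, 0.40 for combination, 0.86 for vancomycin and 0.51 for vehicle. Klf9 gave r = 0.45 and rho = 0.45 (adjusted p = 0.0274 and 0.0355), and none of the other 34 relations passed. Library totals of the same pairs correlated at r = 0.74 (permutation p = 1e-05, the smallest these permutations can give). Of transcripts abundant in thyroid libraries, Tg stood at 0.0468%, Pth at 0.0488% and Calca at 0.102% of their thyroid levels in hypothalamus. The part of such reads in the Rxrb values was not tested. Number, barcode and library total move together in these pairs and cannot be told apart. The number also fixes the treatment, and the permutations shuffled all pairs without regard to it. Treatment differences shared by both tissues therefore enter the pooled r and its p.

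**Figure D3:**
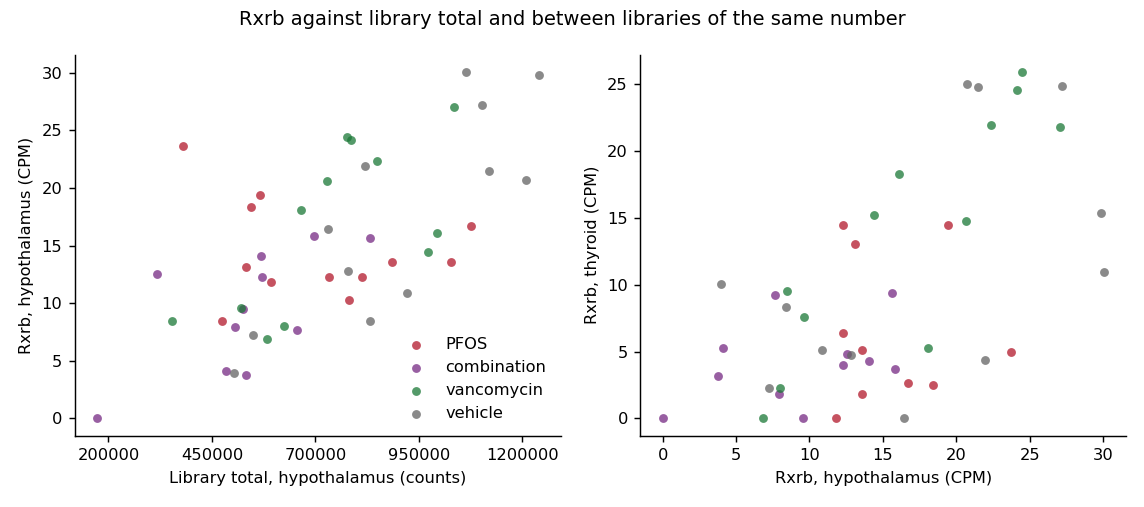
Left, Rxrb in hypothalamus (CPM) against the library total; right, Rxrb in the thyroid library (CPM) against Rxrb in the hypothalamus library of the same number; each point is a library or a pair of libraries, coloured by treatment. Rxrb was higher in libraries of higher total (r = 0.61 over 47 libraries) and the pairs correlated at r = 0.62 (45 pairs).

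The promoters of Thra, Rxrb and Thrsp are shown because the first pair had lower values in hypothalamus under PFOS while Thrsp had the widest range between tissues. RefSeq matched all 7 symbols, and its table of 250 bases before to 50 after each start held 6 of them (not Hr). The windows are in build GRCr8: Thra at chr10:84197891-84198190 (plus strand, the first of 2 entries), Rxrb at chr20:4824610-4824909 (minus strand) and Thrsp at chr1:161138915-161139214 (minus strand). Capitals mark GGGCGG (the core letters read by Sp and Klf factors) and ATTGG (the inverted CCAAT letters) on either strand.
Thra: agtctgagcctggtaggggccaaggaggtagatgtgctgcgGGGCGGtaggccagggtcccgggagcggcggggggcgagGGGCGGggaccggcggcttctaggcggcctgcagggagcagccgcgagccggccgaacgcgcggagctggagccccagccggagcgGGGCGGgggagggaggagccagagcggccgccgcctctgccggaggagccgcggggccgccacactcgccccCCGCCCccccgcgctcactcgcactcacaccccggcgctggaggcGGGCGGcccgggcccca
Rxrb: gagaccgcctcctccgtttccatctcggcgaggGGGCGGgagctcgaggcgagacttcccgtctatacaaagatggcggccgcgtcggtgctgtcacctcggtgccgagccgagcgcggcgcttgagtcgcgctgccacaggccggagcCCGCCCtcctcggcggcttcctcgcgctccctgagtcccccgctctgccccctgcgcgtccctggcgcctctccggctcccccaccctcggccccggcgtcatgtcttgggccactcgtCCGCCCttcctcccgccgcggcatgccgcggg
Thrsp: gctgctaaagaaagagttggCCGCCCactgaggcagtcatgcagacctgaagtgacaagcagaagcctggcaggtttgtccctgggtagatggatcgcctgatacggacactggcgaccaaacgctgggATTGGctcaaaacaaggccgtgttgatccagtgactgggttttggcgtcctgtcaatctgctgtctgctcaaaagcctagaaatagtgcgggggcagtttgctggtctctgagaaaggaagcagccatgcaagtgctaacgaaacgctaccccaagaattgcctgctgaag
The Thra window held GGGCGG at 5 places and 37 CG pairs, the Rxrb window 3 and 41, and the Thrsp window 1 and 10, with ATTGG once in Thrsp. Among 33469 promoters of the same length, 33.1% held GGGCGG and 37.5% ATTGG, and the median promoter held 7 CG pairs. AGGTCA, the receptor's own recognition letters, and its repeat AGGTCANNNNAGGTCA (both strands searched) were in 0 of the windows of the 6 genes, against 16.2% and 0.00598% of all promoters. The absence says only that these letters are not in these 300 bases.

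Ncor1, the gene of the nuclear receptor corepressor that receptors without hormone recruit, was detected in every kept library of all 4 tissues. In vehicle rats it held 24.8 to 47.5 CPM in hypothalamus (median 30.2, n = 12), 8.07 to 35.7 CPM in pituitary (median 18.5, n = 12), 17.8 to 53.5 CPM in thyroid (median 34.7, n = 12) and 13.5 to 93.7 CPM in liver (median 25.99, n = 9). These ranges overlapped. With the trimmed mean of M values (TMM) scaling of edgeR the hypothalamus stood below thyroid by a log2 fold change of -0.44 ± 0.15 (adjusted p = 0.00739) and below liver by -0.97 ± 0.21 (adjusted p = 7.42e-05), pituitary below thyroid by -0.53 ± 0.21 (adjusted p = 0.0254) and thyroid below liver by -0.72 ± 0.24 (adjusted p = 0.00726), whereas hypothalamus and pituitary differed by 0.07 ± 0.19 (adjusted p = 0.74). In the last pairs 71.7% of genes were called between pituitary and thyroid, and 72.7% between thyroid and liver. The scaling itself shifts all genes relative to plain totals by -0.98 between thyroid and liver and by -1.09 between hypothalamus and liver on the log2 scale (-0.67 between hypothalamus and pituitary, -0.30 between hypothalamus and thyroid, 0.36 between pituitary and thyroid and -0.80 between pituitary and liver), so the order of liver rests on it: plain CPM averaged 35.8 ± 10.8 in thyroid and 36.2 ± 25.6 in liver. The small difference between hypothalamus and pituitary rests on it as well, since plain CPM averaged 31.8 ± 6.62 and 19.7 ± 8.67 there.

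Liver Ncor1 had a lower mean in each treated group than in vehicle, and no contrast passed the test. It held 11.1 to 27.8 CPM in PFOS livers (median 19.98, n = 8), 10.6 to 43.5 CPM in combination livers (median 18.6, n = 10), 9.20 to 32.5 CPM in vancomycin livers (median 19.8, n = 10) and 13.5 to 93.7 CPM in vehicle livers (median 25.99, n = 9). The log2 fold change was -0.70 ± 0.28 for PFOS against vehicle (edgeR adjusted p = 0.296) and -0.70 ± 0.25 for combination against vehicle (adjusted p = 0.292). The treated livers all carry barcodes with 5 G and C bases. The 4 vehicle livers with such barcodes averaged 27.2 CPM (20.03 to 37.5) and the other 5 averaged 43.4 CPM (13.5 to 93.7), and the highest vehicle value came from a library of 106742 counts, 10 of them from Ncor1. After removal of treatment means, liver Ncor1 correlated with log2 total at r = -0.53 over 37 libraries, given as a description. With a 500000-count minimum, which left 3 vehicle livers, the log2 fold change of Ncor1 was -0.45 for PFOS against vehicle and -0.37 for combination against vehicle. With barcode G and C content as a covariate it was -0.44 in each. With log2 total as a covariate it was -0.63 for PFOS and -0.46 for combination against vehicle. None of these passed (edgeR adjusted p of at least 0.287). In hypothalamus, pituitary and thyroid the log2 fold changes of Ncor1 lay between -0.35 and 0.30 in the contrasts of 2 groups, and none passed.

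Thrsp, also called Spot 14, is a thyroid hormone response gene of lipid-making tissues, and it had the widest range of the members. Vehicle libraries held 1127 to 4433 CPM in liver (median 1714, mean 2359 ± 1201, n = 9), 705 to 1695 CPM in thyroid (median 1134, mean 1128 ± 260, n = 12), 53.8 to 129 CPM in hypothalamus (median 90.0, mean 93.4 ± 23.99, n = 12) and 2.69 to 26.3 CPM in pituitary (median 10.9, mean 11.9 ± 7.43, n = 12). Liver and thyroid overlapped, and every other neighbouring pair of tissues was separate. By edgeR the order was liver over thyroid (thyroid against liver -2.05 ± 0.21, adjusted p = 3.48e-10), thyroid over hypothalamus (hypothalamus against thyroid -3.88 ± 0.14, adjusted p = 6.34e-21) and hypothalamus over pituitary (2.31 ± 0.22, adjusted p = 1.07e-11). Between pituitary and liver, where 78.2% of genes were called, the log2 fold change was -8.39 ± 0.31 (adjusted p = 1.59e-21). The TMM scaling enters these sizes, shifting thyroid against liver by -0.98, and liver had the higher mean than thyroid on plain totals as well.

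Thyroid libraries held much Thrsp and little of other liver transcripts. Over all treatments Thrsp averaged 1333 CPM in thyroid, 60.9% of its liver level, while the liver transcripts Alb, Apoa1 and Fgb stood at 0.825%, 1.43% and 1.11% of their liver levels in thyroid. Markers of fat, a tissue that also makes Thrsp, summed to 138 to 420 CPM in PFOS, 120 to 476 in combination, 138 to 317 in vancomycin and 148 to 365 in vehicle thyroids, with 8 of 8 markers in the files detected in each group. Thrsp correlated with this sum at r = 0.24 and rho = -0.00 (permutation test, adjusted p = 0.175 and 0.984 over 10 relations, n = 46), with r = -0.08 without the 2 libraries of most extreme sum and within-group values of 0.35 for PFOS, 0.68 for combination, -0.20 for vancomycin and -0.21 for vehicle. With the sum of thyroid follicle markers it correlated at r = 0.52 and rho = 0.56 (adjusted p = 0.00085 and 0.00045), with r = 0.50 without the 2 farthest and 0.32, 0.41, 0.25 and 0.67 within PFOS, combination, vancomycin and vehicle. With log2 total it correlated at r = -0.39 and rho = -0.47 (adjusted p = 0.027 and 0.00363), with r = -0.34 without the 2 farthest and -0.51, 0.13, -0.14 and -0.71 within the groups in the same order. With parathyroid and C cell markers r was 0.02 (adjusted p = 0.90) and with skeletal muscle markers -0.15 (adjusted p = 0.374). Shares of a library sum to a constant, so correlations between them are descriptions.

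**Figure D4:**
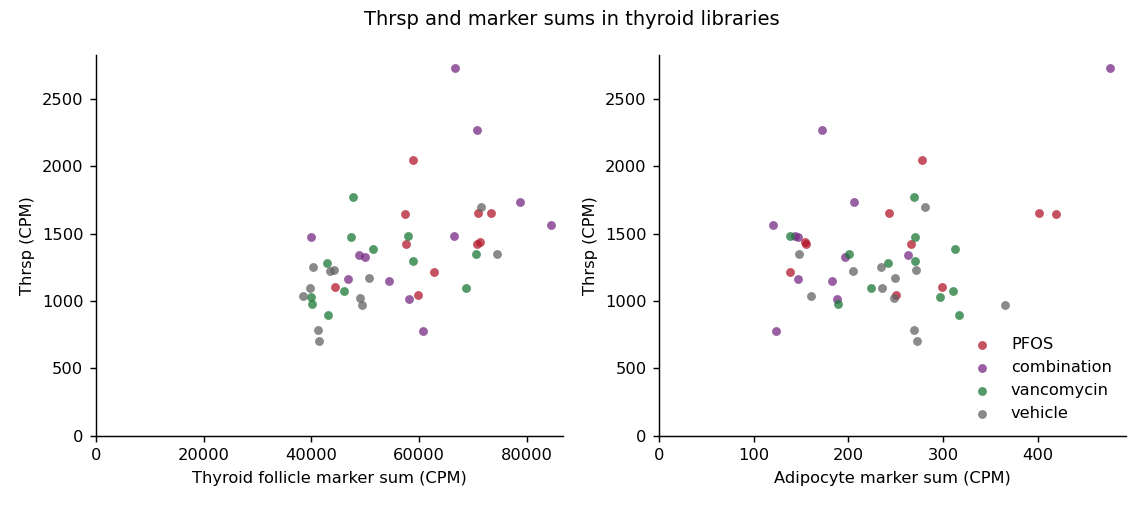
Thrsp (CPM) in each thyroid library against the summed CPM of 7 thyroid follicle markers (left) and of 8 adipocyte markers (right), coloured by treatment. Thrsp was higher in libraries with a higher follicle sum (r = 0.52), and against the adipocyte sum r was 0.24, or -0.08 without its 2 most extreme libraries.

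Thyroid Thrsp was higher on average in rats given PFOS, short of the threshold in each contrast. It measured 1045 to 2045 CPM in PFOS thyroids (median 1431, n = 10) and 780 to 2728 CPM in combination thyroids (median 1409, n = 12), against 898 to 1772 CPM in vancomycin thyroids (median 1291, n = 12) and 705 to 1695 CPM in vehicle thyroids (median 1134, n = 12). The groups overlapped, although 8 of 10 PFOS and 10 of 12 combination thyroids exceeded the mean of vehicle. The log2 fold change was 0.36 ± 0.15 for PFOS against vehicle (edgeR adjusted p = 0.208), 0.38 ± 0.14 for combination against vehicle (adjusted p = 0.118) and 0.21 ± 0.14 for combination against vancomycin (adjusted p = 0.427). Averaged over rats with and without vancomycin it was 0.28 ± 0.10 (edgeR adjusted p = 0.0577, with 13.1% of genes called), and DESeq2 gave 0.28 with an adjusted p of 0.0491. The follicle marker sum moved with treatment too, averaging 62740 CPM in PFOS, 60535 in combination, 51261 in vancomycin and 48676 in vehicle thyroids, and its part in the Thrsp values was not tested. Library depth also moved with treatment in thyroid. Mean totals were 506273 counts in PFOS, 378578 in combination, 541399 in vancomycin and 797237 in vehicle thyroids. Thrsp was lower in thyroid libraries of higher total (r = -0.39, n = 46). Without the libraries in the top 25% of the adipocyte marker sum, Thrsp averaged 1366, 1391, 1341 and 1129 CPM in PFOS, combination, vancomycin and vehicle thyroids.

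In liver, where Thrsp is a textbook target of thyroid hormone and of carbohydrate feeding, its spread between libraries was wide and no contrast passed. Livers held 629 to 4398 CPM under PFOS (median 1810, n = 8), 644 to 3423 CPM under the combination (median 1504, n = 10), 1242 to 3503 CPM under vancomycin (median 2652, n = 10) and 1127 to 4433 CPM under vehicle (median 1714, n = 9). The log2 fold change was -0.13 ± 0.32 for PFOS against vehicle, -0.48 ± 0.30 for combination against vancomycin and -0.40 ± 0.31 for combination against vehicle (edgeR adjusted p of 0.702 to 0.961). A 500000-count minimum left 3 vehicle livers, and PFOS livers 29, 32 and 34. There the direction turned, to 0.40 ± 0.56 for PFOS against vehicle and 0.36 ± 0.49 for combination against vehicle (edgeR adjusted p = 0.906 and 0.982). In hypothalamus Thrsp averaged 102 ± 44.3 CPM in PFOS, 80.1 ± 19.5 in combination, 97.2 ± 24.8 in vancomycin and 93.4 ± 23.99 in vehicle rats, with no call. In pituitary it averaged 13.1, 10.1, 15.4 and 11.9 CPM in PFOS, combination, vancomycin and vehicle rats and stood below the filter.

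Klf9, a transcription factor gene induced by thyroid hormone and also by glucocorticoids, was highest in thyroid. Vehicle libraries held 51.1 to 134 CPM in thyroid (median 86.7, n = 12), 32.8 to 71.8 CPM in hypothalamus (median 55.1, n = 12), 12.502 to 65.6 CPM in liver (median 19.2, n = 9) and 12.6 to 48.4 CPM in pituitary (median 18.4, n = 12). The neighbours in this order overlapped. Hypothalamus stood below thyroid by a log2 fold change of -0.98 ± 0.14 (edgeR adjusted p = 1.26e-07) and above pituitary by 0.69 ± 0.18 (adjusted p = 0.00082), thyroid above liver by 0.999 ± 0.24 (adjusted p = 0.000388) and pituitary below thyroid by -1.69 ± 0.20 (adjusted p = 2.64e-09). Hypothalamus and liver differed by 0.21 ± 0.22 (adjusted p = 0.362), a difference that passed without the filter on low counts (0.57, adjusted p = 0.016). The order of this pair rests on the scaling. Plain CPM averaged 55.2 in hypothalamus and 28.4 in liver, and CPM on TMM-scaled totals over all tissues 40.3 and 43.2. Under treatment its largest difference in hypothalamus was -0.44 ± 0.18 for combination against vancomycin, where it averaged 47.3 ± 13.3 and 61.3 ± 23.2 CPM (edgeR adjusted p = 0.117), and it passed in no tissue.

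Hr, the gene of the hairless corepressor and a known target of thyroid hormone in brain, was near the limit of detection. It averaged 4.54, 6.20, 6.53 and 4.36 CPM in PFOS, combination, vancomycin and vehicle hypothalamus, from 39, 34, 55 and 48 counts. In pituitary its groups averaged 2.34 to 4.66 CPM and in thyroid 2.60 to 3.58 CPM. In 37 livers 1 count of Hr was found in all. Hr passed the filter in no tissue, and none of its permutation tests passed adjustment. The smallest p was that of pituitary PFOS against vehicle, 2.34 ± 1.69 and 4.66 ± 3.14 CPM (p = 0.0339, adjusted p = 0.830).

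In the edgeR fits without a depth or barcode covariate, with the filter in place and libraries of at least 100000 counts, Thra and Rxrb in hypothalamus were the members called under treatment. With barcode G and C content as a covariate, Thrsp passed in thyroid for PFOS averaged over rats with and without vancomycin (0.32, edgeR adjusted p = 0.0499). In the average over rats with and without vancomycin, 1.44% of genes were called in pituitary and 3.6% in liver, with 0 of 3 members in each. In pituitary 0 of 3 members tested were called by edgeR or DESeq2 in any contrast and 0 reached an unadjusted p under 0.05. Of all pituitary genes, 1.19% were called for PFOS against vehicle, 0% for combination against vancomycin, 0.0228% for vancomycin against vehicle and 1.37% for combination against vehicle. In thyroid the edgeR fits without a covariate called 0 of 3 in any contrast. DESeq2 called Thrsp there for the same average (0.28, DESeq2 adjusted p = 0.0491). By edgeR 1 member was at an unadjusted p under 0.05 (Thrsp) for PFOS against vehicle and for combination against vehicle. Of all thyroid genes, 0.0589% were called for PFOS against vehicle, 3.26% for combination against vancomycin, 0% for vancomycin against vehicle and 2.95% for combination against vehicle. In liver edgeR and DESeq2 called 0 of 3 in any contrast, with 1 at an unadjusted p under 0.05 (Ncor1) for PFOS against vehicle, vancomycin against vehicle and combination against vehicle, beside 0.831%, 0% and 0.769% of genes called, and 0.923% for combination against vancomycin. Vancomycin against vehicle called 0 of 5 members in hypothalamus by edgeR or DESeq2, with 0 at an unadjusted p under 0.05 and 0% of genes called. The interaction of PFOS and vancomycin called 0 members and 0% of genes in all 4 tissues. The difference of the PFOS effect between tissues was tested for all 6 pairs, and edgeR and DESeq2 called no member, with 1 test of a member at an unadjusted p under 0.05 without vancomycin and 5 under it. Of all genes, this difference was called without vancomycin for 1.74% between hypothalamus and pituitary, 1.52% between hypothalamus and liver, 1.97% between pituitary and thyroid, 1.55% between thyroid and liver and 0% in the other pairs. Under vancomycin the shares were 6.56%, 2.66%, 4.27% and 0.365% in the same order, and 0% in the other pairs. For Thra it was -0.20 ± 0.32 in log2 units between hypothalamus and pituitary for PFOS against vehicle (edgeR adjusted p = 0.832, 1.74% of genes called), and for combination against vancomycin it was -0.74 ± 0.27 (adjusted p = 0.0794, 6.56% of genes called), so the fall in hypothalamus is not shown to be particular to that tissue.

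**Figure D5:**
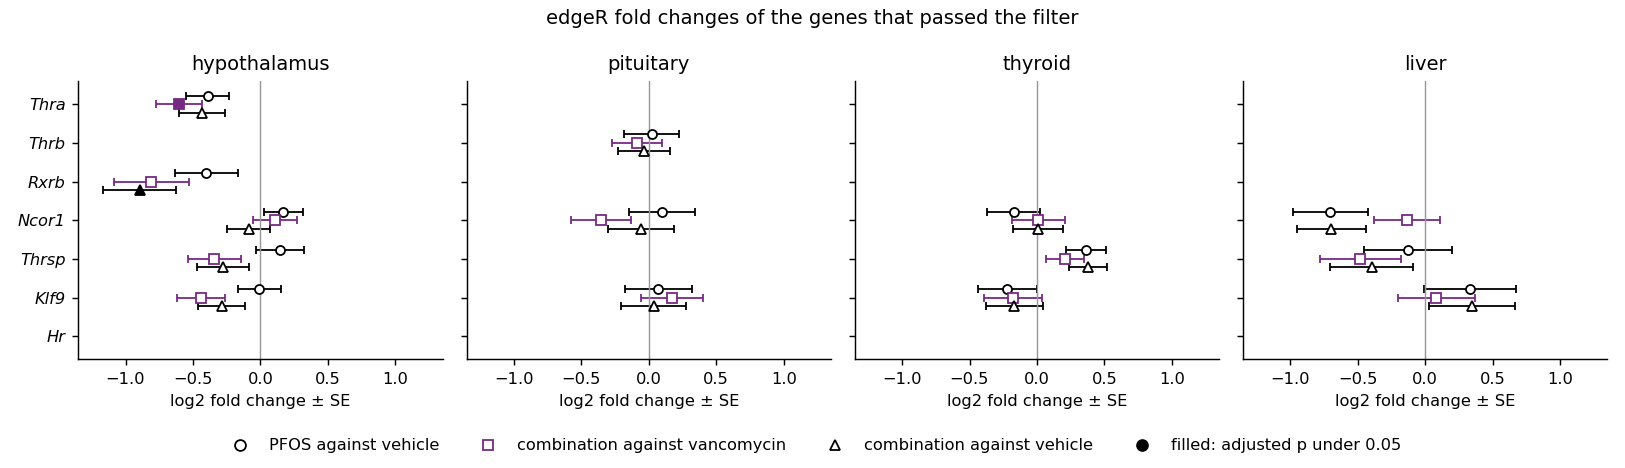
Log2 fold changes with SE of the members that passed the filter in each tissue (columns), for PFOS against vehicle, combination against vancomycin and combination against vehicle, with filled symbols at an edgeR adjusted p under 0.05. Filled symbols are Thra for combination against vancomycin and Rxrb for combination against vehicle, both in hypothalamus; genes without a symbol were not tested.

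Other genes of the pathway were read from lists. Of 19 cofactors of the receptors, 8 were tested in hypothalamus: for PFOS against vehicle 1 rose and 0 fell (median log2 fold change 0.14, against 0.01 over all genes, with 4.44% of all genes called), and for combination against vehicle 0 rose and 1 fell (8.14% of all genes called). Crebbp, a histone acetyltransferase coactivator, rose by 0.57 ± 0.17 to 341 ± 86.7 CPM in PFOS, against 229 ± 59.1 CPM in vehicle hypothalamus (edgeR adjusted p = 0.046). Tbl1x, a subunit of the corepressor complex that also holds the Ncor1 protein, fell by 1.04 ± 0.30 to 6.94 ± 3.26 CPM in combination, against 13.2 ± 6.97 CPM in vehicle hypothalamus (edgeR adjusted p = 0.0215). In the average over rats with and without vancomycin 3 of the 8 rose (Crebbp, Hdac3 and Ncoa1) and Tbl1x fell, where 20.5% of all genes were called. With log2 total as a covariate none of these calls held. Crebbp was at 0.47 ± 0.17 for PFOS against vehicle (edgeR adjusted p = 0.188) and Tbl1x at -0.77 ± 0.36 for combination against vehicle (adjusted p = 0.317). In the average Crebbp, Hdac3, Ncoa1 and Tbl1x had edgeR adjusted p of 0.182, 0.231, 0.436 and 0.0520. Over all hypothalamus genes, that covariate gave 2 calls for PFOS against vehicle, against 293 without it. For combination against vancomycin it gave 119, against 522, and for combination against vehicle 36, against 537. In thyroid 1 of 5 cofactors rose in the average (Crebbp, 0.44 ± 0.15, edgeR adjusted p = 0.0416) and 0 in the contrasts of 2 groups. In that average 13.1% of all thyroid genes were called, and with log2 total as a covariate Crebbp had an adjusted p of 0.442 by edgeR. By edgeR 0 of 5 were called in pituitary and 0 of 2 in liver, with at most 2 and 1 at an unadjusted p under 0.05 in the PFOS contrasts.

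Of 10 response genes known from brain, 7 were tested in hypothalamus, and those called all fell. Mobp, a myelin protein gene, fell by 0.59 ± 0.15 to 94.6 ± 21.5 CPM in PFOS, against 140 ± 45.3 CPM in vehicle hypothalamus (edgeR adjusted p = 0.0215). That was 1 of 7 tested, where 4.44% of all genes were called. For combination against vancomycin 3 of 7 fell, where 7.91% of all genes were called, with Mobp at -0.84 ± 0.16 (83.6 ± 13.7 and 145 ± 39.99 CPM, edgeR adjusted p = 0.00072), the myelin gene Mbp at -0.57 ± 0.14 (2364 ± 332 and 3372 ± 954 CPM, adjusted p = 0.00602) and the myelin gene Mag at -0.60 ± 0.18 (adjusted p = 0.0271). For combination against vehicle Mobp and Mbp fell (2 of 7, with 8.14% of all genes called). In the average over rats with and without vancomycin 4 of 7 fell, where 20.5% of all genes were called. There Nrgn, a neuronal calmodulin-binding protein gene, fell by 0.32 ± 0.08 as well (edgeR adjusted p = 0.00496). With log2 total as a covariate Mobp kept its call for combination against vancomycin (-0.58 ± 0.14, edgeR adjusted p = 0.0136) and in the average (-0.48 ± 0.10, adjusted p = 0.00162). It lost the call for PFOS against vehicle (-0.37 ± 0.12, edgeR adjusted p = 0.167) and combination against vehicle (-0.36 ± 0.15, adjusted p = 0.253). Mbp, Mag and Nrgn lost each of their calls with that covariate (edgeR adjusted p of 0.103 to 0.440). The medians over the 7 were -0.26, -0.35 and -0.31 for PFOS against vehicle, combination against vancomycin and combination against vehicle, against 0.01, 0.00 and 0.00 over all genes. Mobp, Mbp and Mag are also oligodendrocyte markers, and the sum of 7 such markers averaged 8153 CPM in PFOS, 7528 in combination, 8214 in vancomycin and 8106 in vehicle hypothalamus. The sum was thus not lower in PFOS than in vehicle. Mbp alone went from 3320 CPM in vehicle to 2364 in combination, more than the whole sum fell. The other markers of the sum were therefore higher together, and the list did not fall as a whole. Single genes of other marker lists were called in the same tissue, each the only one called in its list for that contrast. In combination against vehicle the red cell transcript Hbb fell by 0.69 ± 0.14 and the endothelial Kdr by 0.64 ± 0.19 (edgeR adjusted p = 0.000822 and 0.0298, with 8.14% of all genes called). Pomc fell there by 0.53 ± 0.16 (edgeR adjusted p = 0.0331). For PFOS against vehicle the neuronal Gad2 fell by 1.06 ± 0.32 and the parathyroid transcript Pth by 1.03 ± 0.32 (edgeR adjusted p = 0.0423 and 0.0496, with 4.44% of all genes called). Pth averaged 20.5 CPM over hypothalamus libraries and 42043 CPM over thyroid libraries, which carry the same well barcodes. For combination against vancomycin the macrophage transcript C1qb fell by 0.57 ± 0.18 and Hbb by 0.44 ± 0.14 (edgeR adjusted p = 0.0453 and 0.0368, with 7.91% of all genes called). With log2 total as a covariate Gad2 and Pth lost these calls (edgeR adjusted p = 0.320 and 0.119). So did C1qb and Hbb for combination against vancomycin (edgeR adjusted p = 0.118 and 0.215). The part of cell makeup in these values, and of reads from thyroid libraries in Pth, was not tested.

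Response genes known from liver gave no call in liver: of 19, 13 were tested, 0 passed in any contrast by edgeR, and 2, 1 and 3 had an unadjusted p under 0.05 for PFOS against vehicle, combination against vancomycin and combination against vehicle, with medians of -0.29, -0.16 and -0.27 against -0.02, 0.00 and -0.02 over all genes. The 6 tested of 7 pituitary response genes, Tshb and Gh1 among the list, gave 0 calls in pituitary, and 1 had an unadjusted p under 0.05, for combination against vehicle. Glucocorticoid response genes were listed because Klf9 answers to both hormones. For combination against vancomycin 1 of 7 was called in hypothalamus, where 7.91% of all genes were called (Mt2A fell by 0.57 ± 0.19, edgeR adjusted p = 0.0468). In thyroid 1 of 6 was called, where 3.26% of all genes were called (Sgk1, a serum- and glucocorticoid-induced kinase gene, fell by 0.79 ± 0.23 to 53.7 ± 24.5 CPM in combination, against 88.4 ± 35.8 CPM in vancomycin thyroid, edgeR adjusted p = 0.0444). With log2 total as a covariate neither passed (edgeR adjusted p = 0.201 for Mt2A and 0.570 for Sgk1). Clock genes, listed for Nr1d1, gave 0 calls in any tissue.

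The genes whose levels ran closest to a member were found by Pearson r over 16 group means (4 tissues by 4 treatments), mostly a likeness of tissue pattern. For Thra these were Pea15, Ttc3 and Limch1 (r of 0.99), for Thrb Il18bp (0.97), Eepd1 (0.94) and Pcsk6 (0.93), for Rxrb Plcd1 (0.97), for Ncor1 Smurf2 (0.90), for Thrsp Tm7sf2 (0.99) and Pros1 (0.98), and for Klf9 Itga6 and Emc6 (0.99). Within a tissue, after removal of treatment means, hypothalamic Rxrb ran closest with Med25 (r = 0.81) and Shank1 (0.79), and Thra with Mrfap1 (0.69) over 47 libraries. Thyroid Thrsp ran closest with Ctsa (0.69) over 46 libraries and thyroid Klf9 with Ubxn4 (0.71). Liver Thrsp ran closest with Acly (0.80), the gene of ATP citrate lyase that supplies acetyl-CoA for lipid synthesis, over 37 libraries. The libraries of one tissue share depth differences that enter each of these values, and the highest of so many correlations is large by selection.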

How the data were processed

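The deposited tables hold raw counts per gene, which the authors made from barcoded 3′ reads; BWA 0.7.4.4 and the rat build rn6 are listed, per the submitters' processing notes, and the counting tool and strand are not given in the sources used here. Groups came from the sample labels. Libraries under 100000 counts were left out. CPM is counts scaled to 1000000 per library. Treatment effects were tested within each tissue, and tissue pairs in vehicle rats, with edgeR 4.0.16 (quasi-likelihood F test, TMM scaling, filterByExpr with a minimum count of 10, Benjamini-Hochberg adjustment over all genes tested) in R 4.3.3. DESeq2 1.42.0 was an alternative. Members below the filter were compared by two-sided permutation tests, exact in liver and with 100000 resamples in the other tissues (scipy 1.17.1). The tests were also run on simulated counts with the same spread for every gene and changes only in genes averaging at least 10 counts. Levels that run with depth, and members of lower counts, were not covered by that simulation. The 7 members, the gene lists and the contrasts were chosen with earlier results of these data known. Named genes are the members, the list genes that passed, and the genes most like a member. The labels number the samples without saying which rat each came from, so p-values measure the spread between samples. Same-numbered libraries were not treated as paired, because not every pair correlated above 0.1. Between hypothalamus and thyroid 42 of 45 pairs did, and between pituitary and liver 22 of 37. In the other tissue pairs 7 to 14 did. Alternatives covered scaling, filter, depth minimum, depth and barcode covariates, 2-group fits, the replicate block and leaving out single libraries. Counting error limits low genes.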

Additional observations from a re-analysis of the deposited data

Results flagged for a closer look

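The gap of the highest or lowest library to its neighbour was examined in groups of 4 to 10 libraries, which here are the 4 liver groups and PFOS thyroid, since all other groups are larger. Of 32 sets of values, 8 had a highest library far from the others, all in liver and resting on 1 to 11 counts. For smooth values chance marks about 1 in 20 such sets, a rate that need not hold for so few counts. Rxrb reached 12.4 CPM in PFOS library 27 (3 counts), 4.50 CPM in combination library 39 (3 counts) and 9.20 CPM in vancomycin library 14 (4 counts). Thrb reached 36.3 CPM (5 counts) and Ncor1 43.5 CPM (6 counts) in combination library 45. Klf9 reached 44.6 CPM in vancomycin library 21 (11 counts). In vehicle livers Thra reached 12.2 CPM in library 1 (2 counts) and Hr 0.834 CPM in library 7 (1 count).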

How the results depend on the processing

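The number of members called stayed within 1.5 times in 249 comparisons of a setting with the reported fit and moved in 13, single-library omissions aside. In hypothalamus, combination against vancomycin called 0 members with log2 depth or barcode GC as a covariate, and 0 to 2 when single libraries were left out. Combination against vehicle called 0 with only the 2 groups compared, with a 500000-count minimum, with log2 depth or with barcode GC, and 0 to 2 when single libraries were left out. The PFOS effect averaged over rats with and without vancomycin called 0 with log2 depth (Thra -0.37, edgeR adjusted p = 0.0846). In thyroid that average called 1 member under DESeq2 and with barcode GC (Thrsp), and 1 without the filter and at 500000 counts (Rxrb). That minimum left 4 PFOS, 2 combination, 7 vancomycin and 10 vehicle thyroids, so thyroid values at it rest on few libraries. Tissue pairs called 33 member tests without the filter, against 18. With the sample number as a replicate block they called 18, and the block changed no call; over hypothalamus and thyroid pairs the median correlation of same-numbered libraries was 0.20, and 28 of 45 correlated best with their own number. At 500000 counts the tissue difference of the PFOS effect under vancomycin called 2 members, and the pituitary against thyroid value of Ncor1 was 0.55 (adjusted p = 0.423), against -0.33. Thyroid Thrsp correlated at that minimum with adipocyte markers at r = 0.44 (permutation p = 0.0415, n = 23). However, rho was -0.01 (permutation p = 0.948), and r was -0.25 without the 2 farthest libraries. Within vancomycin and vehicle thyroids r was -0.16 and -0.33. Where no value shows it, the cause was not tested. All genes called for PFOS against vehicle in hypothalamus numbered 293, and 2 with log2 depth as a covariate. Depth limits Hr everywhere and Thra and Rxrb in liver.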
